A study of Mus musculus with 6 samples.

Results

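Mitochondrial ribosomal proteins are encoded in the nucleus and assembled with the ribosomal RNAs of mitochondrial DNA into the ribosome that works inside mitochondria. The genes described here were taken by name, as every gene symbol that starts with Mrpl or Mrps followed by a digit, without pseudogene symbols, and with a mean of at least 10 normalized counts over the 6 libraries. That rule held for 78 of the 18288 genes measured, and all 78 symbols that fitted the name also passed the level. By solved structures of the mammalian mitochondrial ribosome, 51 encode proteins of the large subunit, including Mrps30 and Mrps18a despite their symbols, and 26 encode proteins of the small subunit. Mrps36 is a member by name, but its protein is known as a subunit of the 2-oxoglutarate dehydrogenase complex and is kept apart from both subunits.

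RNA sequencing was done on mouse CD8+ T cells, the cytotoxic lineage of T cells, that had been activated in culture and collected at day 2. The groups are Nae1T-KO, with 3 libraries, and Nae1WT, with 3 libraries, and all cells of both groups went through the same activation. Nae1 encodes a subunit of the enzyme that activates the ubiquitin-like protein NEDD8. The titles call the libraries of each group biological replicates. The labels give no allele, no promoter that drives the deletion, no age and no statement that each replicate is its own mouse. The p-values therefore reflect only how far these libraries differ among themselves.

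The mitochondrial ribosome translates the messenger RNAs held in mitochondrial DNA, which encode core subunits of the respiratory chain and of ATP synthase. Its small subunit binds the messenger and reads the codons, and its large subunit forms the peptide bonds and passes the new protein to the inner membrane. Some of its proteins descend from bacterial ribosomal proteins and others exist only in mitochondrial ribosomes. Activated T cells are known to build up mitochondria and mitochondrial translation as they start to divide.

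Values are normalized counts, meaning reads assigned to a gene divided by 1 size factor for each library. Depth was 16994995 to 20849511 gene-assigned reads in Nae1T-KO and 15628252 to 25444653 in Nae1WT libraries. The deleted gene checked the labels: Nae1 counts were 390.3, 338 and 367 in Nae1T-KO libraries, against 1601, 1806 and 1882 in Nae1WT libraries. Its log2 fold change was -2.27 ± 0.09 (standard error), and Uba3, which encodes the partner subunit of the same enzyme, had a log2 fold change of 0.02 ± 0.08. The 5 CD8 T cell markers Cd3d, Cd3e, Cd3g, Cd8a and Cd8b1 were all present and summed to 16935 to 19763 normalized counts in Nae1T-KO libraries, against 19324 to 21685 in Nae1WT libraries. Of these 5, Cd3g, a chain of the T cell receptor complex, was called lower (log2 fold change -0.51 ± 0.08, limma adjusted p = 0.00365). In bulk RNA of this kind, fewer cells of a type and less RNA per cell cannot be told apart.

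Few of the 78 genes differed between the groups, and those that did were modestly lower in Nae1T-KO cells. By limma on log2(normalized count + 1), with Benjamini-Hochberg adjustment over all 13819 tested genes and a threshold of 0.05, 5 of the 78 fell and 0 rose. The 5 were Mrpl42 and Mrpl9 of the large subunit and Mrps22, Mrps33 and Mrps27 of the small subunit. Mrpl42 fell by 23.8%, the most of the 5, and Mrpl9 fell by 17.2%, the least. They make up 6.41% of the members, while 12.7% of all tested genes were called, 6.18% as lower and 6.53% as higher. The share of members called lower is thus near that of genes at large. Of the 7849 tested genes whose mean was at least that of the lowest member, 8.29% were called lower and 7.72% higher. At an unadjusted p under 0.05, 2 members were higher and 19 lower, against 1989 higher and 2035 lower of all 13819 tested genes. On recovered reads, edgeR, DESeq2 and limma-voom called 0 members higher, and 5, 8 and 5 lower. Of all genes they tested, they called 13.0%, 15.7% and 12.8%, either way. Scaling to total counts gave 1 higher and 2 lower, with 13.0% of all tested genes called.

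The number of calls changed when 1 library was left out, among members and among all tested genes. Without Nae1T-KO replicate 1, 2 or 3 the number of members called lower was 2, 0 and 11. Without Nae1WT replicate 1, 2 or 3 it was 7, 0 and 0. In the fit without Nae1T-KO replicate 3, 1 member was called higher. Of all tested genes, 9.37%, 7.48% and 13.0% were called, either way, without Nae1T-KO replicate 1, 2 or 3. Without Nae1WT replicate 1, 2 or 3 that share was 9.74%, 6.11% and 6.90%, against 12.7% with all libraries.

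Mrpl42 encodes a large subunit protein found only in mitochondrial ribosomes and lies on chromosome 10 at chr10:95480805-95501949, minus strand. It had 2071, 1811 and 2210.4 normalized counts in Nae1T-KO libraries, against 2387, 3059 and 2568 in Nae1WT libraries. Every Nae1T-KO library lay below every Nae1WT library, and the widest gap was between replicate 2 of each group. The log2 fold change was -0.39 ± 0.10 (limma adjusted p = 0.0344).

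Mrpl9 encodes the counterpart of bacterial protein L9 at chr3:94443154-94448708, plus strand. Its normalized counts were 2435, 2213 and 2296 in Nae1T-KO libraries, against 2618, 2921 and 2847 in Nae1WT libraries. The groups did not overlap and the libraries within each group lay close together. The log2 fold change was -0.27 ± 0.07 (limma adjusted p = 0.0321).

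Mrps27 encodes a small subunit protein built of pentatricopeptide repeats, a fold typical of RNA-binding proteins of mitochondria, at chr13:99344767-99415562, plus strand. It had 730.3, 678 and 748 normalized counts in Nae1T-KO libraries, against 919.7, 889.6 and 888 in Nae1WT libraries. The groups did not overlap, the standard deviations were 36.7 in Nae1T-KO and 17.7 in Nae1WT libraries, and the adjusted p was the smallest of the 5. The log2 fold change was -0.32 ± 0.08 (limma adjusted p = 0.0209). Mrps27 overlaps the non-coding gene 6430562O15Rik, and reads of the overlap could not be assigned by strand here.

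Mrps22 encodes a small subunit protein specific to mitochondria, for which human mutations are known to cause mitochondrial disease, at chr9:98588730-98601679, minus strand. Its normalized counts were 1142, 1029 and 1319.8 in Nae1T-KO libraries, against 1336, 1656 and 1534 in Nae1WT libraries. The highest Nae1T-KO library, replicate 3, sat just under the lowest Nae1WT library, replicate 1. The log2 fold change was -0.38 ± 0.11 (limma adjusted p = 0.0441).

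Mrps33, also specific to mitochondrial ribosomes, lies at chr6:39801804-39810936, minus strand. It had 1011, 865 and 1092 normalized counts in Nae1T-KO libraries, against 1153, 1392 and 1257 in Nae1WT libraries. The groups again did not overlap, with Nae1T-KO replicate 3 nearest to Nae1WT replicate 1. The log2 fold change was -0.36 ± 0.10 (limma adjusted p = 0.0433).

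**Figure D1:**
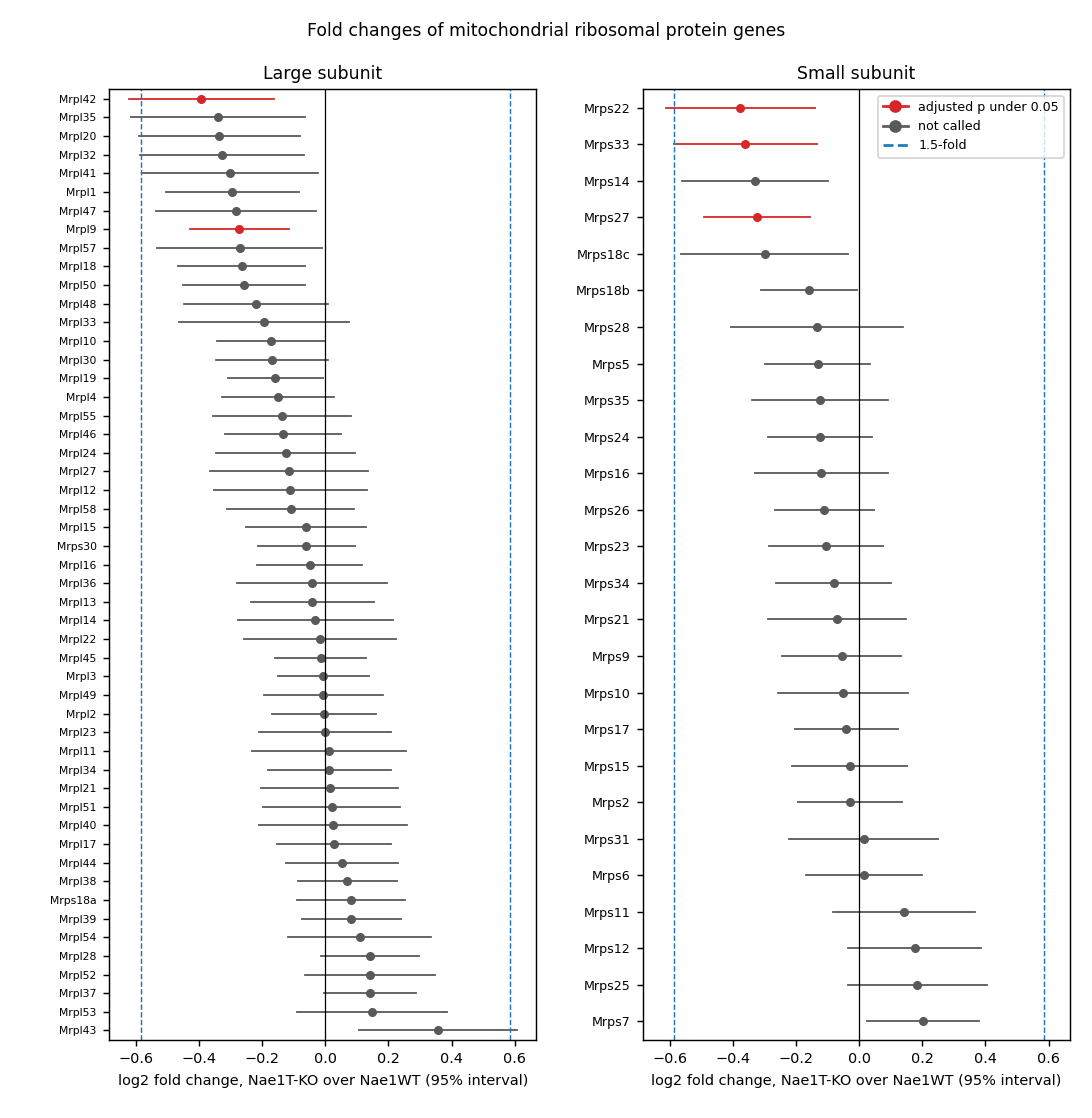
Log2 fold change, Nae1T-KO over Nae1WT, of each large subunit gene (left) and small subunit gene (right), from limma on 3 libraries per group. Points are estimates, lines are 95% intervals, red marks the 5 genes with an adjusted p under 0.05, and dashed lines mark a 1.5-fold difference either way; estimates run from -0.39 for Mrpl42 to 0.36 for Mrpl43.

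The bases upstream of the called genes are shown because nuclear genes for mitochondrial proteins often carry sites for the ETS factor GABP, for NRF1 and for YY1 near their starts. The sequences are RefSeq's, on GRCm38.p6, 5′ to 3′ on the strand of the gene, without bases that lie inside any RefSeq gene span. Capitals mark matches on either strand to CCGGAAG (ETS) or to GCGCA and GCGC with any 1 base between them (NRF1). They cover chr10:95501950-95502099 (minus) for Mrpl42, chr9:98601680-98601829 (minus) for Mrps22, chr6:39810937-39811086 (minus) for Mrps33 and chr13:99344679-99344766 (plus) for Mrps27. The starts that RefSeq's promoter table uses for Mrpl9 and Mrps27 lie within the genes' own spans. The Mrps27 stretch therefore ends at the edge of the gene span and not at that start, and of Mrpl9 only the 30 bases at chr3:94443298-94443327 (plus) around its match are given.
Mrpl42: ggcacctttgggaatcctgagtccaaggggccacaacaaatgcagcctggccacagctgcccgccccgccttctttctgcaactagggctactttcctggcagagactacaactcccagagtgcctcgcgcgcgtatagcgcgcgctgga
Mrps22: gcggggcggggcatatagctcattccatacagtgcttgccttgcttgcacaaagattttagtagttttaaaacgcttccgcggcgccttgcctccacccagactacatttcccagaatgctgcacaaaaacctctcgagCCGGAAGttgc
Mrps33: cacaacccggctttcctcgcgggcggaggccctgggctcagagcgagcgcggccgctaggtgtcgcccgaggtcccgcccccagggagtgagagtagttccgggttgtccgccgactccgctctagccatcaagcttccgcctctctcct
Mrps27: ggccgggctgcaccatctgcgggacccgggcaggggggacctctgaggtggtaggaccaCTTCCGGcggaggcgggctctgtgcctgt
Mrpl9: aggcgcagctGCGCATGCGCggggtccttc

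Counted from the start in the promoter table, the ETS letters began 11 bases before it in Mrps22 and 48 bases before it in Mrps27, and the NRF1 letters 28 bases before it in Mrpl9. The stretches of Mrpl42 and Mrps33 held none of the letters searched, although in the 50 bases after the start Mrpl42 had a YY1 match (AAGATGGC) and Mrps33 an ETS match. Mrps27 had a YY1 match there too. Over whole windows, from 250 bases before to 50 after a start, 69 members matched the RefSeq table with 75 windows. ETS letters stood in 34.7% of these windows, against 17.6% of the 12772 windows of tested genes and 8.86% of all 32851 windows. NRF1 letters stood in 17.3% of member windows, against 9.76% and 4.60%, and YY1 letters in 16%, against 4.45% and 2.75%. The E-box CACGTG, which MYC and related factors bind, stood in 9.33%, against 9.85% and 7.15%. At least 1 of the ETS, NRF1 and YY1 motifs was present in 58% of large subunit windows and 58.3% of small subunit windows. That share was 28.3% of the windows of tested genes and 14.7% of all windows. No motif contains another. Most of the member windows belong to genes that were not called, and a match of letters is a description of the sequence only.

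In the large subunit, 2 of 51 genes fell and 0 rose, or 3.92% called lower against 6.18% of all tested genes. At an unadjusted p under 0.05, 13 of the 51 were lower and 1 higher, against 2035 lower and 1989 higher of all 13819. The median log2 fold change was -0.05, against -0.01 over all tested genes. Of the 51, 35 had a negative and 16 a positive fold change, against 7052 and 6767 of all 13819. Among the 29 with a bacterial counterpart, 1 was called lower and the median was -0.11. Among the 22 specific to mitochondria, 1 was called lower and the median was 0.01. The 22 include Mrps18a, although it is related to bacterial S18, and Mrpl55, which was placed there after values were seen.

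The stalk that recruits translation factors is built around Mrpl12, with Mrpl10 and Mrpl11 at its base, and Mrpl12 has also been described as a partner of mitochondrial RNA polymerase. Mrpl12 had 4533, 3875 and 4517 normalized counts in Nae1T-KO libraries, against 3911, 4905 and 5205 in Nae1WT libraries, so the groups overlapped (log2 fold change -0.11 ± 0.11). Mrpl10 had 948, 907 and 1001 normalized counts in Nae1T-KO libraries, against 1132, 1027 and 1061 in Nae1WT libraries. Its groups did not overlap, yet its log2 fold change of -0.17 ± 0.08 did not pass (limma adjusted p = 0.162). Mrpl11 overlapped between groups, with a log2 fold change of 0.01 ± 0.11.

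Mrpl3, which reaches towards the site of peptide bond formation, overlapped between groups. Its normalized counts were 1962, 1976 and 1949.9 in Nae1T-KO libraries, against 1874, 2036 and 2009 in Nae1WT libraries, and the 95% interval of its log2 fold change ran from -0.15 to 0.14. Mrpl45, which anchors the ribosome at the inner membrane next to the exit of the peptide tunnel, had an interval from -0.16 to 0.13. Mrpl41, a mitochondria-specific protein also described as a partner of BCL2, had 1088, 1045 and 1397 normalized counts in Nae1T-KO libraries, against 1333, 1667 and 1338 in Nae1WT libraries. Nae1T-KO replicate 3 lay inside the Nae1WT range, and the log2 fold change of -0.30 ± 0.12 did not pass (limma adjusted p = 0.141).

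Per kilobase of the main annotated transcript, the highest large subunit genes were Mrpl33, Mrpl20 and Mrpl42. Mrpl33, the counterpart of bacterial L33, had 3635 normalized counts per kilobase in Nae1T-KO and 4157 in Nae1WT cells. Mrpl20, the counterpart of bacterial L20, had 3332 in Nae1T-KO and 4226 in Nae1WT cells, and Mrpl42 had 3049 and 4011. Mrpl20 did not overlap between groups, with 2665, 2268 and 2704 normalized counts in Nae1T-KO libraries, against 2716, 3729.8 and 3240.3 in Nae1WT libraries. Nae1T-KO replicate 3 and Nae1WT replicate 1 were almost level, and the log2 fold change of -0.34 ± 0.11 did not pass (limma adjusted p = 0.0836). Mrpl33 overlapped (log2 fold change -0.19 ± 0.12).

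Mrpl43 had the largest positive fold change of the 78. It encodes a mitochondria-specific large subunit protein and has the lowest mean of all members, 269.6 normalized counts, followed by Mrpl14 with 454 and Mrpl55 with 461. Mrpl43 had 322, 318 and 269.6 normalized counts in Nae1T-KO libraries, against 237, 245 and 226 in Nae1WT libraries. The groups did not overlap, and the log2 fold change of 0.36 ± 0.11 did not pass (limma adjusted p = 0.0634), though it passed after scaling to total counts and in the fit without Nae1T-KO replicate 3. Mrpl43 overlaps Twnk, the gene of the mitochondrial DNA helicase, whose own log2 fold change was -0.06 ± 0.08, and the division of reads between them is uncertain. RefSeq's window for Mrpl43 lies within the span of Twnk, and the 30 bases at chr19:45006479-45006508 (minus) hold 1 of its 2 ETS matches.
Mrpl43: cgcggtgactCCGGAAGcaaaactctccag

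Mrps18a and Mrps30 are the large subunit proteins that carry small subunit names. Mrps18a had 638, 671 and 649 normalized counts in Nae1T-KO libraries, against 619, 606 and 624 in Nae1WT libraries. Every Nae1T-KO library was higher, but by so little that the log2 fold change was 0.08 ± 0.08 (limma adjusted p = 0.525). Mrps30 overlapped, with a log2 fold change of -0.06 ± 0.07.

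In the small subunit, 3 of 26 genes fell and 0 rose. At an unadjusted p under 0.05, 6 of the 26 were lower and 1 higher, against 2035 lower and 1989 higher of all 13819. The called share was 11.5%, against 6.18% of all tested genes called lower, a difference that rests on few genes and was not tested. The median log2 fold change was -0.09, with 20 negative and 6 positive values, against 7052 and 6767 of all 13819. The 3 called genes, Mrps22, Mrps33 and Mrps27, are all among the 10 that are specific to mitochondria, or 30% of them, and the median of the 10 was -0.12. Among the 16 with a bacterial counterpart 0 were called by limma, 2 were lower and 1 higher at an unadjusted p under 0.05, and the median was -0.05. The difference between these classes was not tested. Mrps18b counts among the 10 by its structure-based name, although it is related to bacterial S18, and was placed there after values were seen.

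Mrps12, a protein of the decoding centre, had 606, 647 and 619 normalized counts in Nae1T-KO libraries, against 497, 552 and 613 in Nae1WT libraries. Only Nae1WT replicate 3 reached the Nae1T-KO range, and the log2 fold change was 0.18 ± 0.10 (limma adjusted p = 0.249). Mrps7, which organises the head of the small subunit, had 1519.9, 1547 and 1778 normalized counts in Nae1T-KO libraries, against 1349, 1385 and 1468 in Nae1WT libraries. Its groups did not overlap and it had the largest positive fold change of the small subunit, 0.20 ± 0.08, which did not pass (limma adjusted p = 0.122). Mrps7 overlaps Mif4gd and Gga3.

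The Mrps18 genes are a family of 3 related to bacterial S18, of which Mrps18c holds the bacterial position, Mrps18b sits elsewhere in the small subunit and Mrps18a in the large one. Mrps18c had 958, 893 and 1128 normalized counts in Nae1T-KO libraries, against 1039, 1389 and 1244 in Nae1WT libraries. Nae1T-KO replicate 3 overlapped the Nae1WT range, and the log2 fold change was -0.30 ± 0.12 (limma adjusted p = 0.128). Mrps18b had 1129.6, 1055 and 1129 normalized counts in Nae1T-KO libraries, against 1248, 1234 and 1215 in Nae1WT libraries. It was lower in every Nae1T-KO library, with a log2 fold change of -0.16 ± 0.07 that did not pass (limma adjusted p = 0.157). The 3 paralogs therefore had point estimates on both sides of 0, and none was called.

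Per kilobase, Mrps21, Mrps18c and Mrps15 were the highest small subunit genes. Mrps21 had 1775 normalized counts per kilobase in Nae1T-KO and 1859 in Nae1WT cells. Mrps18c had 1556 and 1919, and Mrps15 had 1391 and 1418. Mrps21 and Mrps15, both counterparts of bacterial proteins, overlapped between groups, with log2 fold changes of -0.07 ± 0.10 and -0.03 ± 0.08. Mrps36, the member of neither subunit, had a log2 fold change of 0.04 ± 0.08.

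Across the 78 genes the log2 fold changes spread narrowly. Their standard deviation was 0.16, against 0.44 over all tested genes and 0.30 over the 7849 tested genes whose mean was at least that of Mrpl43. It was 0.15 over 79 cytosolic ribosomal protein genes and 0.19 over 83 nuclear genes of the respiratory chain, so the narrow spread was not particular to the members. The 95% interval of the fold change lay within 1.5-fold either way for 71 members, or 91.0%, against 57.6% of all tested genes and 85.3% of those 7849. For the cytosolic ribosomal protein and respiratory chain genes that share was 94.9% and 83.1%. The 7 members whose interval reached further were Mrpl42, Mrpl35, Mrpl20, Mrpl32, Mrpl43, Mrps22 and Mrps33. A negative fold change was seen in 55 members and a positive one in 23, while scaling to total counts left 43 negative. Of all 13819 tested genes, 7052 were negative and 6767 positive. Respiratory chain genes had 60 negative and 23 positive values, and cytosolic ribosomal protein genes 48 and 31. The lean towards negative values was thus not particular to the members. Nae1T-KO libraries were all below the Nae1WT libraries for 14 members, or 17.9%, near the 17% of all tested genes, and all above them for 5, or 6.41%, against 16.7% of all tested genes.

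Members moved together from library to library, and that movement was not the same within a group. The median deviation from a gene's own mean, in log2 units, was -0.03, -0.14 and 0.06 in Nae1T-KO replicates 1, 2 and 3, and -0.06, 0.13 and 0.05 in Nae1WT replicates 1, 2 and 3. Nae1T-KO replicate 2 was the lowest library and Nae1WT replicate 2 the highest, while Nae1T-KO replicate 3 lay above Nae1WT replicate 1. Both subunits followed this order at their ends, with -0.15 and -0.14 in Nae1T-KO replicate 2 for the large and small subunit and 0.14 and 0.11 in Nae1WT replicate 2. The within-group standard deviation of these library medians was 0.11 for the large and 0.09 for the small subunit, against median fold changes of -0.05 and -0.09. Summed over all 78 genes, the normalized counts were 95257, 88294 and 101587 in Nae1T-KO libraries, against 94891, 109257 and 103290 in Nae1WT libraries, so the sums overlapped.

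The same ends were seen in other genes of ribosomes and mitochondria. Nae1T-KO replicate 2 had a median deviation of -0.18 over 83 nuclear genes of the respiratory chain and -0.16 over 79 genes of cytosolic ribosomal proteins, and Nae1WT replicate 2 had 0.15 and 0.14. Over all tested genes the library medians stayed between 0.00 and 0.01, which scaling by size factors is built to bring about. Nae1T-KO replicate 2 also had the highest sum of the 6 erythroid markers, all present, which spanned 194 to 2042 normalized counts in Nae1T-KO and 142 to 629 in Nae1WT libraries. Its sum of the 5 B cell markers, all present, was the highest too, within 195 to 477 in Nae1T-KO and 212 to 333 in Nae1WT libraries. The 4 CD4 T cell markers summed to 126 to 273 in Nae1T-KO and 110 to 212 in Nae1WT libraries. Of 7 myeloid and dendritic markers, 4 had values, and their sum did not overlap between groups, with 53.7, 101.3 and 64.6 normalized counts in Nae1T-KO libraries, against 30.7, 17.8 and 27.4 in Nae1WT libraries. It too was highest in Nae1T-KO replicate 2, and 1 of the list, Xcr1 of dendritic cells, was called higher at a mean of 14.3 in Nae1T-KO and 3.6 in Nae1WT libraries. The 2 NK and gamma-delta T cell markers with values summed to 9.69 to 26.3 in Nae1T-KO and 16.7 to 25.8 in Nae1WT libraries. The part of other cells in the library pattern and in the calls was not tested.

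Libraries also differed in sex as read from Xist against Y-linked genes, with Nae1T-KO replicates 1 and 2 and Nae1WT replicate 3 on the Xist side. For pairs of a Nae1T-KO and a Nae1WT library that matched in sex, the members' median log2 difference ran from -0.18 to 0.12 (4 pairs), and for pairs that did not match from -0.27 to 0.04 (5 pairs). With sex as a covariate 2 members, Mrpl9 and Mrps27, were called lower, and 11.1% of all tested genes were called either way.

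**Figure D2:**
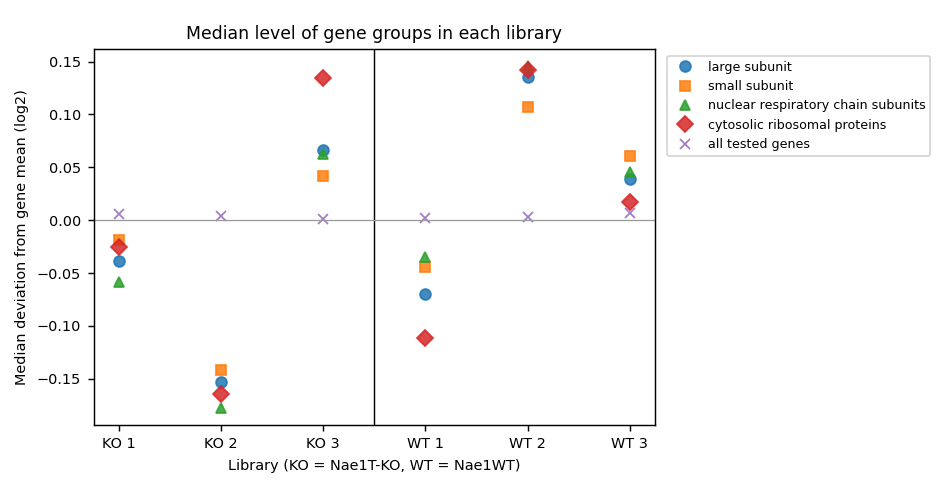
Median deviation from the gene mean, in log2 units, of each gene group in each library (KO is Nae1T-KO, WT is Nae1WT). Large subunit, small subunit, respiratory chain and cytosolic ribosomal protein genes are lowest in KO 2 and raised in WT 2. The median of all tested genes stays near 0 in every library, which scaling by size factors is built to bring about.

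The 78 genes lie on 17 chromosomes, and 24 of them overlap another measured gene, so part of their reads may be shared. On the chromosome of Nae1 itself, Mrpl34 lies 33.0 Mb and Mrps31 82.1 Mb away, and their log2 fold changes were both 0.01, with standard errors of 0.09 and 0.11. A divergent neighbour, with 5′ ends 8 to 377 base pairs apart, was found for 31 members. Mrpl46 of the large and Mrps11 of the small subunit are such neighbours of each other, separated by the 41 bases at chr7:78783090-78783130, shown on the plus strand.
between Mrpl46 and Mrps11: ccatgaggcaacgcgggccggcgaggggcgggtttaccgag

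Those 41 bases held none of the 4 motifs. Mrpl46 had a log2 fold change of -0.13 ± 0.08 and Mrps11 one of 0.14 ± 0.10, neither called. Mrps27 shares its start region with Ptcd2, also a pentatricopeptide repeat gene, 89 base pairs away, which had a log2 fold change of -0.25 ± 0.07 and missed the threshold (limma adjusted p = 0.0509). Mrps18b lies 72 base pairs from Ppp1r10, the gene of a nuclear regulator of protein phosphatase 1, which rose by 0.41 ± 0.07 on the log2 scale (limma adjusted p = 0.0042) while Mrps18b had -0.16. Mrps12 lies 136 base pairs from Sars2, the mitochondrial seryl-tRNA synthetase, whose log2 fold change was -0.02 ± 0.09. Mrpl44 lies 125 base pairs from Wdfy1, with which it overlaps, and Wdfy1 rose by 0.63 ± 0.18 (limma adjusted p = 0.0417) beside 0.05 ± 0.08 for Mrpl44.

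Of 5 subunits of the same ribosome that carry other names, 2 fell and 0 rose, or 40% called lower against 6.18% of all tested genes. Chchd1, a small subunit protein, had 1743, 1377 and 1603 normalized counts in Nae1T-KO libraries, against 1913, 2576 and 2418 in Nae1WT libraries, without overlap (log2 fold change -0.54 ± 0.12, limma adjusted p = 0.0181). Ptcd3, another pentatricopeptide repeat protein of the small subunit, had a log2 fold change of -0.27 ± 0.07 (limma adjusted p = 0.0246). Dap3, a GTP-binding protein of the small subunit, had -0.10 ± 0.06, and Aurkaip1 and Gadd45gip1 had -0.09 ± 0.11 and 0.15 ± 0.10, none of them called. Without Nae1T-KO replicate 2, Nae1WT replicate 2 or Nae1WT replicate 3, 0 of the 5 were called, and without Nae1T-KO replicate 3, 1.

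Among 27 assembly factors of the mitochondrial ribosome 4 fell and 0 rose, with a median log2 fold change of -0.05. The share that fell was 14.8%, against 6.18% of all tested genes. Tfb1m, which methylates the ribosomal RNA of the small subunit, had 161, 155 and 173 normalized counts in Nae1T-KO libraries, against 287, 310.5 and 287 in Nae1WT libraries. The groups stood far apart, with a log2 fold change of -0.85 ± 0.11 (limma adjusted p = 0.00141). Fastkd2, an RNA-binding protein needed for the large subunit, had 1335, 1329 and 1286 normalized counts in Nae1T-KO libraries, against 1778, 1958 and 1887 in Nae1WT libraries (log2 fold change -0.51 ± 0.07, limma adjusted p = 0.00153). Mtg1, a GTPase that acts late in large subunit assembly, had a log2 fold change of -0.46 ± 0.10 (limma adjusted p = 0.0157). Without Nae1T-KO replicate 2, Nae1WT replicate 2 or Nae1WT replicate 3, 2 assembly factors were called lower, and Fastkd2 was called in all 19 alternatives.

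Among 17 mitochondrial translation factors 2 fell, or 11.8%, and 0 rose, with a median of -0.13. Of all tested genes, 6.18% were called lower, and the difference in share rests on few genes and was not tested. Guf1, the counterpart of bacterial elongation factor 4, had 594, 624 and 648 normalized counts in Nae1T-KO libraries, against 963, 1037 and 972 in Nae1WT libraries. The groups did not come near each other, and the log2 fold change was -0.67 ± 0.08 (limma adjusted p = 0.000768), a call made in all 19 alternatives. Mtrf1, a release factor, had a log2 fold change of -0.50 ± 0.13 (limma adjusted p = 0.0284), and 1 factor was called lower without any 1 of Nae1T-KO replicates 2 and 3 or Nae1WT replicates 1, 2 and 3.

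Among 20 mitochondrial tRNA synthetases 2 fell, or 10%, and 0 rose, with a median of -0.14. This share too rests on few genes, against 6.18% of all tested genes called lower. Rars2, which charges the arginine tRNA, had 643.1, 643.3 and 677 normalized counts in Nae1T-KO libraries, against 914, 961 and 1022 in Nae1WT libraries (log2 fold change -0.56 ± 0.08, limma adjusted p = 0.0019), and was called in all 19 alternatives. Iars2, for isoleucine, had a log2 fold change of -0.34 ± 0.08 (limma adjusted p = 0.0252). It was called in 13 of 19 alternatives. Without Nae1T-KO replicate 2, or after scaling to total counts, 1 of the list was called.

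Among 20 genes of mitochondrial DNA upkeep, transcription and RNA handling 4 fell, or 20%, and 2 rose, or 10%, against 6.18% and 6.53% of all tested genes, with a median of -0.06. The named decreases were Tefm, the mitochondrial transcription elongation factor, at -0.48 ± 0.13, Pnpt1, the polynucleotide phosphorylase, at -0.38 ± 0.07, and Trmt10c, a subunit of mitochondrial RNase P, at -0.38 ± 0.11. Without Nae1T-KO replicate 1 or 2, or Nae1WT replicate 2 or 3, 1 gene of that list was called lower, and between 0 and 1 were called higher when any library but Nae1T-KO replicate 3 was left out. Of 12 mitochondrial chaperones and proteases, 1 fell, or 8.33%, the inner membrane protease gene Yme1l1, at -0.46 ± 0.07, and without Nae1T-KO replicate 3 the count was 2. Of 10 transcription factors and coactivators linked to mitochondrial genes, among them Nrf1 (-0.06 ± 0.07), Gabpa (0.16 ± 0.07), Yy1 (0.17 ± 0.06) and Myc (0.15 ± 0.06), limma called 0. At an unadjusted p under 0.05, 4 of the 10 were higher and 1 lower, against 1989 higher and 2035 lower of all 13819 tested genes. After scaling to total counts, 1 of the 10 was called higher, with 13.0% of all tested genes called either way.

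**Figure D3:**
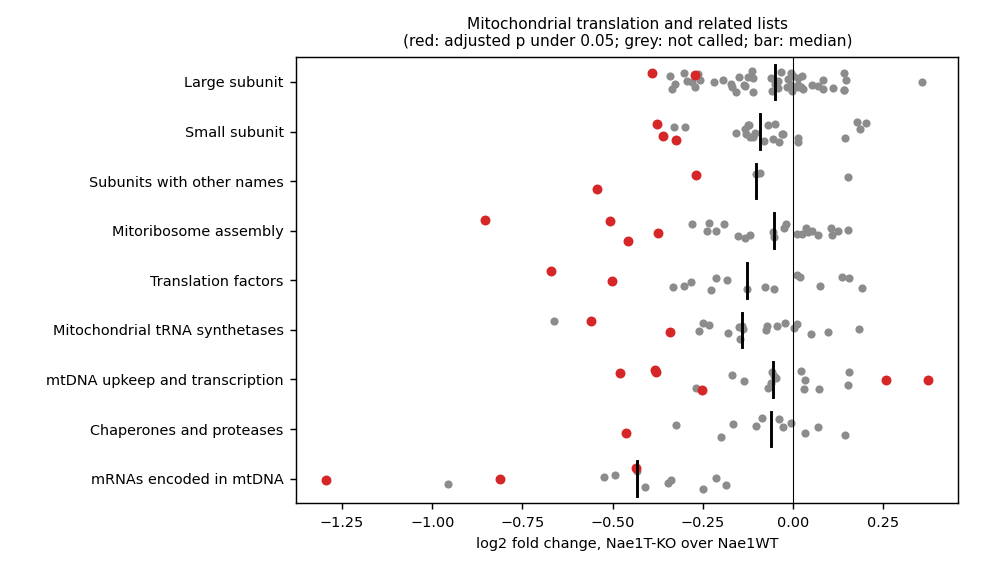
Log2 fold change, Nae1T-KO over Nae1WT, of each tested gene of the mitochondrial ribosome subunits, of related lists and of the messenger RNAs encoded in mitochondrial DNA; red points are called genes and bars are medians. The members sit between -0.39 and 0.36, while single genes such as Tfb1m at -0.85 and ND3 at -0.81 lie further out.

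The templates of this ribosome, the 13 messenger RNAs encoded in mitochondrial DNA, all had negative fold changes, with a median of -0.43. Of all 13819 tested genes, 7052 had negative fold changes. Among the 13 messenger RNAs, 3, or 23.1%, were called lower, against 6.18% of all tested genes. Their summed normalized counts were 365910, 351875 and 511127 in Nae1T-KO libraries, against 482908, 566672 and 503856 in Nae1WT libraries. The sums overlapped, since Nae1T-KO replicate 3 lay inside the Nae1WT range. ND3, a subunit of complex I, had 1099, 971 and 1429.8 normalized counts in Nae1T-KO libraries, against 1892, 2151 and 2029.8 in Nae1WT libraries, without overlap (log2 fold change -0.81 ± 0.13, limma adjusted p = 0.00418). COX1, the catalytic subunit of complex IV, had a log2 fold change of -0.43 ± 0.12 (limma adjusted p = 0.0395), and ATP8, with few reads, had -1.29 ± 0.30 (limma adjusted p = 0.019). ND3 was called in all 19 alternatives, COX1 in 11 of 19 and ATP8 in 14 of 18. Of 83 nuclear genes of the respiratory chain 7 fell, or 8.43%, and 0 rose, with a median of -0.09, among them Cox7a2 at -0.50 ± 0.11 and Ndufv2 at -0.43 ± 0.10. Of 79 cytosolic ribosomal protein genes 1 fell and 1 rose, or 1.27% each way, with a median of -0.05, equal to that of the large mitochondrial subunit at this rounding.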

How the data were processed

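RNA was sequenced from 3 Nae1T-KO and 3 Nae1WT libraries of activated mouse CD8+ T cells. The authors deposited a normalized read signal for every gene, 1 column per library, here called normalized counts. Per the submitters' processing notes, bcl2fastq, HISAT2, DESeq2 1.42.0 and the build mm10 were used, while the sources used here do not give the read counter, its annotation or its use of strand. In every column the values were whole multiples of the value of 1 read (100% within 0.001 of a read), which gave recovered reads for count tests, although the step of Nae1T-KO replicate 3 was so near 1 that its recovery is less certain.

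Genes with at least 10 normalized counts in at least 3 libraries (13819) were log2-transformed after adding 1 and fitted in limma 3.58.1 (R 4.3.3; trend and robust options on), two-sided, with Benjamini-Hochberg adjustment over all of them and a threshold of 0.05. Fold changes are on this scale, which understates low genes. Errors after ± are standard errors. The fit was tested on simulated data. Alternatives were TMM, upper-quartile and total-count scaling, other filters and pseudocounts, each library left out, a replicate block, sex as a covariate, edgeR 4.0.16, DESeq2 1.42.0 and limma-voom.

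Members and lists were chosen with earlier results of these data known. Genes named are the called members, the 3 highest per kilobase in each subunit, the 3 with the lowest means, a set of fixed ones, and up to 3 called per other list; genes next to members and a few others were named after their values were seen. Mrpl55 and Mrps18b were placed in the mitochondria-specific class, as their structure-based names have them, after values were seen. Gene positions and sequences are RefSeq's (GRCm38.p6), and transcript lengths are GENCODE vM21's.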

Additional observations from a re-analysis of the deposited data

How the results depend on the processing

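The number of members called lower was 5, and 2 after scaling to total counts, 2 with sex as a covariate, 8 with DESeq2 and 0 at an adjusted p under 0.01. Of all tested genes, 12.7% were called in the main fit, and 13.0%, 11.1%, 15.7% and 4.23% in these alternatives, in the same order. Leaving out 1 library gave 0 to 11 called lower and 0 to 1 called higher, and total-count scaling gave 1 called higher. In the other scalings, filters, pseudocounts, edgeR and limma-voom, the same 5 genes were called lower. Genes called at large numbered 844 without Nae1WT replicate 2 and 1790 without Nae1T-KO replicate 3, the fit with 11 members called lower, against 1757 with all libraries. A replicate block, taken from title numbers or, on 4 libraries, from library numbers, gave 0 members called lower, with 968 and 253 genes called at large. Deviations from the group means of libraries with the same title number correlated at r = -0.13, -0.18 and -0.27 for replicates 1, 2 and 3. Such deviations cancel out within each group, so these values cannot show whether the numbers pair the samples. The medians ran from -0.11 to -0.01 for the large and from -0.13 to -0.04 for the small subunit when 1 library was left out, and scaling to total counts gave -0.00168 and -0.0449, next to 0.04 for all tested genes.

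Genes near 0 changed sign, none of them called. Scaling to total counts gave 0.0172 for Mrps15, 0.015 for Mrpl14, 0.0404 for Mrpl3 and 0.0334 for Mrpl45. The replicate block by library number gave 0.00951 for Mrps15 and 0.00862 for Mrpl45, and sex as a covariate gave 0.00884 for Mrps15. Leaving out 1 library gave -0.0883 to 0.0334 for Mrps15, -0.114 to 0.0552 for Mrpl14, -0.0436 to 0.0164 for Mrpl3, -0.0366 to 0.011 for Mrpl45, -0.0542 to 0.128 for Mrpl11, -0.0121 to 0.0833 for Mrps36 and -0.015 to 0.0933 for Uba3. The cause was not tested. Members had 193 to 6836 reads in a library, and the share of depth in their spread was not tested.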

Other observations

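Rows for pseudogene copies of members, left out by name, were low. Mrpl23-ps1 averaged 46.4 in Nae1T-KO and 37.7 in Nae1WT libraries, in normalized counts, Mrpl27-ps 40.2 and 33.5, Mrpl48-ps 31.6 and 39.4, and Mrps36-ps1 7.68 and 9.3. The 3 that passed the filter for testing had adjusted p-values of 0.465 to 0.615 by limma.

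Across the 78 members, the length of the main transcript and the log2 fold change had Pearson's r of -0.10 and Spearman's rho of -0.10, given as a description over genes that share their libraries. Over the 12856 tested genes with a length, r was 0.04.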
